A study of Mus musculus with 16 samples.

Results

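The collagen genes of the mouse heart were followed over a week after abdominal surgery. They were taken as every protein-coding gene of the deposited table whose symbol is Col, a number, the letter a and a number, and whose mean level over the 16 libraries was 0.1 TPM or more (a level scaled for gene length and library depth). This rule kept 35 genes of the 57143 in the table, and 9 further collagen genes lay under the minimum. Col25a1, with a mean of 0.101 TPM, was just inside it and Col24a1, with 0.0523 TPM, just outside. RNA came from the left ventricle of male C57BL/6 mice that had undergone abdominal surgery under sevoflurane anaesthesia. Tissue was collected at 0h, 3h, 24h and 7d, with 4 libraries at each time. All 16 libraries, 0h included, carry the surgery label, so the series has no unoperated group, and no age is given for the mice. Whether each library is a different animal is not stated, so the p-values measure only the spread between these samples, which may be technical. The same 4 libraries at 0h serve as the reference at 3h, 24h and 7d, and the comparisons with 0h are therefore not independent of each other.

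Collagens are proteins of the extracellular matrix built from chains that wind into a triple helix. Fibrillar collagens form the rope-like fibres that give the heart wall its tensile strength, and in the heart they are made mainly by fibroblasts. Type IV collagen forms the sheet-like network of basement membranes, which surround cardiomyocytes and line the capillaries, while other collagens decorate fibrils, form beaded microfilaments or sit in cell membranes. Injury of the heart is often followed by increased collagen synthesis and scarring.

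The 35 genes were sorted by textbook class into 8 fibrillar, 8 basement membrane and 19 other collagens. The basement membrane class held the 6 type IV chains together with Col15a1 and Col18a1, whose proteins lie at or next to basement membranes. The other class held 4 type VI chains, 7 fibril-associated collagens (which bind to the surface of fibrils), 2 short-chain network collagens, 3 transmembrane collagens and 3 further genes. Of the 35 genes, 26 had a mean of 0.5 TPM or more and were tested, comprising all 8 fibrillar, 7 basement membrane and 11 other genes. The 9 genes that were not tested (Col4a6, Col7a1, Col8a2, Col9a2, Col9a3, Col12a1, Col22a1, Col25a1 and Col26a1) had means between 0.101 and 0.392 TPM. When the minimum was lowered to 0.1 TPM, none of these 9 was called in any comparison (edgeR, smallest adjusted p = 0.1006, Col9a2 at 7d against 24h). Col9a2, a cartilage fibril-associated chain, was listed at 0 in all 4 libraries at 24h and at no more than 0.402 TPM in any other library.

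Library totals ranged from 8313655 to 12893551 counts. The markers of ventricular cardiomyocytes were abundant in every library, summing to between 71730 and 94370 TPM. Myl7, the atrial myosin light chain and not a ventricular gene, was above 50 TPM in 4 libraries, namely replicate 3 at 3h and replicates 1, 2 and 4 at 24h, where it ranged from 63.8 to 159 TPM. In the other 12 libraries it did not exceed 9.59 TPM. Neutrophil markers summed to between 11.1 and 13.2 TPM at 0h, 150 and 570 TPM at 3h, 69.4 and 330 TPM at 24h and 17.6 and 109 TPM at 7d.

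Mean collagen mRNA was lower at 3h, 24h and 7d than at 0h, with the lowest mean at 24h. The difference between 24h and 3h depended on which libraries were used: the median log2 difference of the 26 tested genes was -0.21 (22 of 26 negative) over all libraries and 0.01 (12 of 26 negative) without the 4 libraries above 50 TPM of Myl7, which leave 1 library at 24h. The 35 genes together made up 0.0865% ± 0.0208 of all TPM at 0h (SD, n = 4), 0.0547% ± 0.00637 at 3h, 0.0440% ± 0.0126 at 24h and 0.0686% ± 0.0302 at 7d. In bulk tissue, fewer cells of a type and less RNA per cell cannot be told apart. The summed fibrillar level was 364, 249, 231 and 197 TPM in replicates 1 to 4 at 0h, 138, 163, 160 and 161 TPM at 3h, 86.5, 142, 162 and 84.0 TPM at 24h, and 183, 111, 288 and 343 TPM at 7d. Every library at 3h and 24h lay below every library at 0h, while at 7d replicates 1 and 2 lay below every 0h library and replicates 3 and 4 within the 0h range.

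In each class the mean sum was lowest at 24h and higher at 7d, and differences between the classes were not tested. The mean fibrillar sum was 0.598 of its 0h value at 3h, 0.456 at 24h and 0.889 at 7d. The basement membrane sum was 427 ± 92.6 TPM at 0h, 284 ± 44.2 at 3h, 230 ± 53.4 at 24h and 310 ± 152 at 7d (SD, n = 4), that is 0.665, 0.537 and 0.724 of the 0h mean at the later times. Without 7d replicate 4 the 7d ratio of this class was 0.555, near its 24h value. The other collagens summed to 177 ± 45.3, 107 ± 9.38, 91.8 ± 33.6 and 145 ± 53.3 TPM at the 4 times. These sums rest on few genes, since Col4a1 gave 21.6%, Col4a2 17.2% and Col3a1 11.5% of collagen TPM at 0h. TPM values of all genes shifted slightly too, the median of all tested genes on the log2(TPM + 1) scale being -0.15 at 3h and -0.19 at 24h against 0h.

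**Figure D1:**
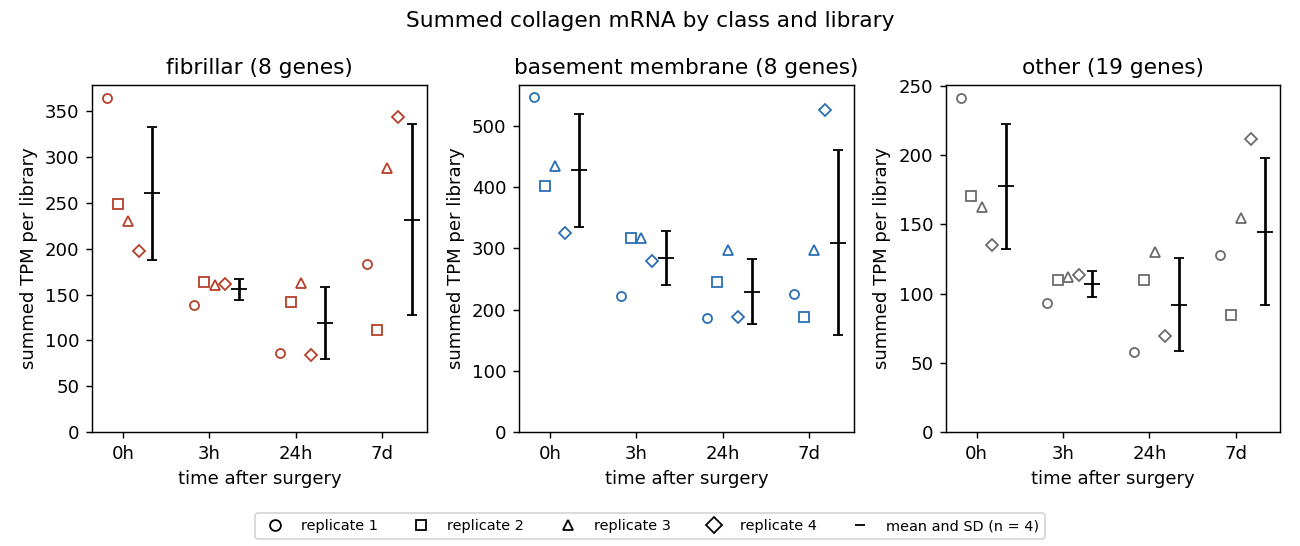
Summed TPM of the fibrillar, basement membrane and other collagens (y axis, each from 0) in each of the 16 libraries by time after surgery (x axis), with the mean and SD of 4 libraries beside them. In each class the mean was lowest at 24h, and the 7d libraries were the most widely spread, from 111 to 343 TPM for the fibrillar sum.

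The balance between classes was measured as the fibrillar sum over the basement membrane sum in each library. It was 0.605 ± 0.0558 at 0h, 0.554 ± 0.0537 at 3h, 0.509 ± 0.0637 at 24h and 0.755 ± 0.169 at 7d (SD, n = 4). The lowest 7d library, at 0.589, lay above the highest 24h library, at 0.580, while the 7d range overlapped those at 0h and 3h. Basement membrane genes gave 49.6% ± 2.11 of collagen TPM at 0h, 52.8% ± 3.39 at 24h and 45.0% ± 4.56 at 7d. These balances were chosen as descriptions and were not tested.

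Gene by gene, edgeR's quasi-likelihood test with Benjamini-Hochberg adjustment over all 16866 tested genes was read at an adjusted p under 0.05. At 24h against 0h, 10 of the 26 tested collagen genes fell and none rose. The background was 18.2% of all tested genes called, 8.62% called lower. The 10 genes were Col1a2, Col3a1, Col5a1 and Col5a3 of the fibrillar class, Col4a2, Col4a3, Col4a4 and Col18a1 of the basement membrane class, and Col6a2 and Col8a1 of the others. Thus 4 of 8 fibrillar, 4 of 7 basement membrane and 2 of 11 other genes fell, with class medians of the log2 fold change of -0.66, -0.81 and -0.56. The median over the 26 genes was -0.62, against -0.01 over all tested genes, and 24 of the 26 estimates were negative. On TPM, 13 of the 26 genes had all 4 libraries at 24h below all 4 at 0h, where the background was 17.0% of all tested genes. Of the 10 genes only Col4a4 was also called with Myl7 as a covariate, or without the 4 libraries above 50 TPM of Myl7, which include 3 of the 4 libraries at 24h.

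At 3h against 0h, Col8a1 alone fell, 1 of 26, where the background was 5.31% called and 3.3% called lower. The median log2 fold change of the 26 genes was already -0.42, with 23 of 26 negative, and 8 genes had an unadjusted p under 0.05. On TPM, 12 of the 26 genes had all 4 libraries at 3h below all 4 at 0h, against a background of 20.6%. The fibrillar sum had an SD of 72.5 TPM at 0h, 11.7 at 3h, 39.5 at 24h and 104 at 7d. Col4a1 had an SD of 44.3 TPM at 0h, 19.6 at 3h, 12.6 at 24h and 71.9 at 7d. The test drew its estimate of spread from all 4 times, and the part of this in the 3h calls was not tested. When the 0h and 3h libraries were fitted alone, 14 of the 26 collagen genes were called and 3191 of all tested genes.

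At 7d against 0h no collagen gene was called by edgeR, none by DESeq2 or limma, and 2 had an unadjusted p under 0.05, with 1.12% of all tested genes called. The median log2 fold change of the 26 genes was -0.18, and no gene had its 7d libraries wholly below those at 0h, where the background was 8.02%. Between 24h and 7d, 4 of 26 genes rose, namely Col4a4, Col1a2, Col5a1 and Col23a1, and none fell, where 8.44% of all tested genes were called and 3.84% called higher. The median log2 difference was 0.44, and 0.56, 0.34 and 0.42 in the fibrillar, basement membrane and other classes. Between 3h and 24h only Col4a4 fell, with a background of 7.78% called and 3.7% called lower. On TPM, Col3a1, Col4a3, Col4a4 and Col5a3 had all libraries at 24h below all at 3h (background 5.86%), Col4a4 and Col23a1 all libraries at 7d above all at 24h (6.15%), and Col23a1 and Col27a1 all libraries at 7d above all at 3h (8.59%). Between 3h and 7d edgeR and limma called none of the 26 genes and DESeq2 called Col1a2, 5 had an unadjusted p under 0.05, and 4.87% of all tested genes were called.

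**Figure D2:**
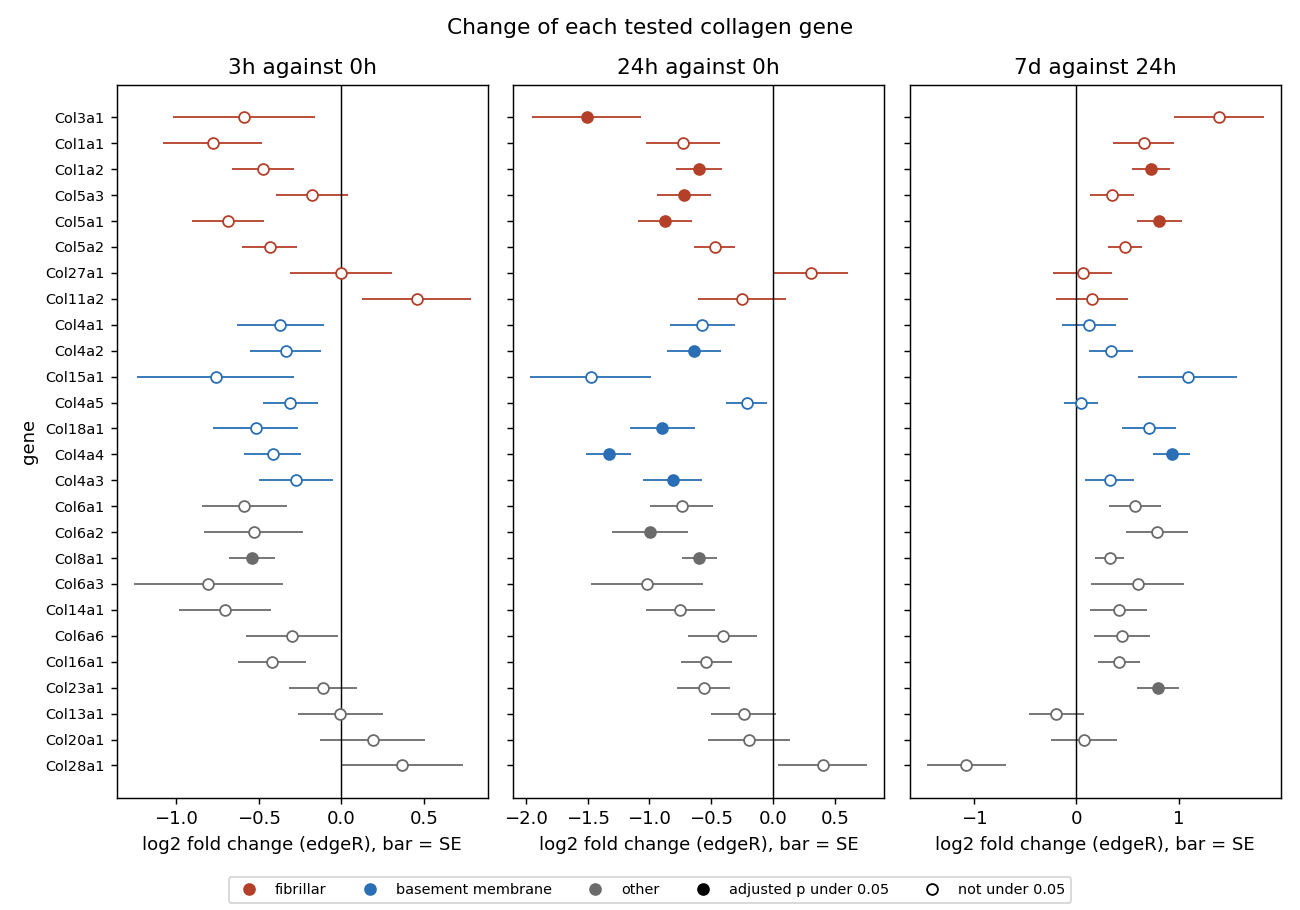
Log2 fold change of each of the 26 tested collagen genes from edgeR (x axis, bars show the standard error) in 3 comparisons, with genes on the y axis in order of mean TPM within each class. Filled points have an adjusted p under 0.05. At 24h against 0h 24 of 26 estimates lie below 0 and 10 are filled, and at 7d against 24h 24 of 26 lie above 0 and 4 are filled.

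In the test of any change among the 4 times, 6 of the 26 genes were called, where 20.7% of all tested genes were called. They were Col4a4 (adjusted p = 0.000336, edgeR), Col8a1, Col5a1, Col1a2, Col23a1 and Col5a2. A share of 6 in 26 is close to that background.

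The same libraries tended to be high or low across many collagen genes. At 0h replicate 1 was the highest library in 20 of the 26 tested genes and replicate 4 the lowest in 21. Replicate 3 was the highest of the 24h libraries in 16 genes, and replicates 1 and 4 were the lowest in 14 and 9. At 7d replicate 4 was the highest in 21 genes and replicate 2 the lowest in 20. The 7d mean of most collagen genes therefore includes a low library, replicate 2, and a high library, replicate 4, beside replicates 1 and 3. When 7d replicate 2 was left out, 10 collagen genes were higher at 7d than at 24h in place of 4, and 751 of all tested genes in place of 648. Without 24h replicate 1 or 4 only Col4a4 was called, with 354 or 397 of all tested genes higher. Without 7d replicate 3 it was 2 collagen genes, with 452 of all tested genes higher. Without 7d replicate 4, Col4a1 and Col4a2 were called at 7d against 0h, where the median of the 26 genes was -0.42, and 298 of all tested genes were called.

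**Figure D3:**
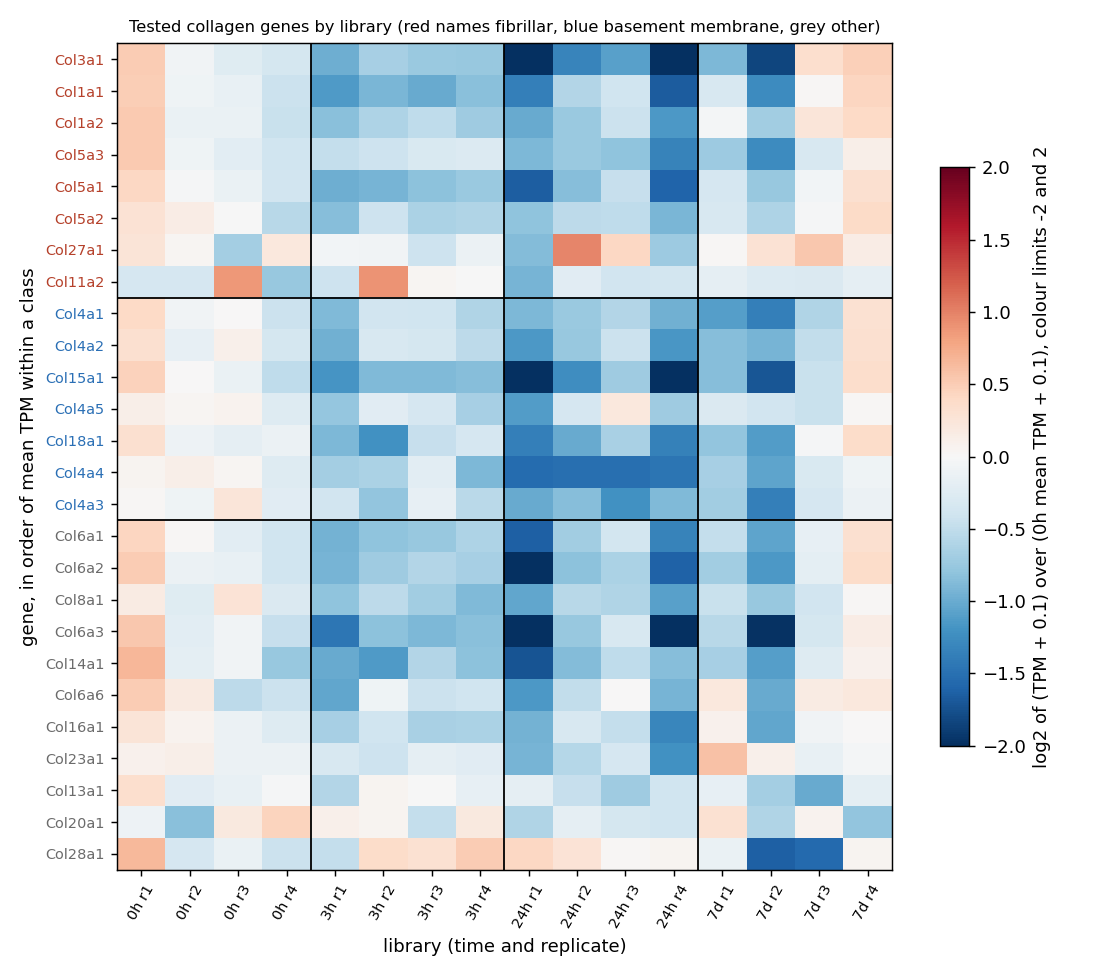
Each tested collagen gene (rows, grouped by class) in each library (columns), coloured by the log2 of its TPM + 0.1 over the 0h mean TPM + 0.1, with colour limits at -2 and 2. Columns 24h r1, 24h r4 and 7d r2 are the bluest across the abundant genes, and Col4a4 has nearly the same colour in all 4 libraries at 24h.

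Fibrillar collagens come first. Type I collagen, the main component of thick cardiac fibres, joins chains encoded by Col1a1 (chromosome 11, 94936224 to 94953042, plus strand) and Col1a2 (chromosome 6, 4504814 to 4541544, plus strand; GRCm38, GENCODE M21, as for all gene positions here). Col1a2 was at 54.6, 34.7, 34.7 and 27.9 TPM at 0h, 21.2, 24.8, 26.7 and 23.2 TPM at 3h, 18.8, 22.6, 28.0 and 17.1 TPM at 24h, and 36.9, 23.3, 44.7 and 50.1 TPM at 7d. The 24h libraries were low except replicate 3, which just exceeded the lowest 0h library, so the groups overlapped. Col1a2 fell by 0.60 on the log2 scale at 24h (SE 0.19, adjusted p = 0.034, edgeR) and rose by 0.73 from 24h to 7d (SE 0.19, adjusted p = 0.022). Leaving out any of 5 libraries ended the first call (the highest adjusted p was 0.125), and leaving out any of 4 ended the second.

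Col1a1 was at 80.0, 53.3, 51.2 and 41.8 TPM at 0h, 25.9, 30.0, 28.0 and 31.7 TPM at 3h, 21.9, 37.5, 42.9 and 17.7 TPM at 24h, and 45.1, 23.5, 57.5 and 76.1 TPM at 7d. All 3h libraries were below all 0h libraries, but at 24h replicate 3 overlapped the 0h range. Col1a1 was not called at any time, with log2 fold changes of -0.78 at 3h (adjusted p = 0.144, edgeR) and -0.73 at 24h (adjusted p = 0.106). The ratio of Col1a1 to Col1a2 TPM lay between 1.47 and 1.53 in the 0h libraries and ranged more widely later, from 1.05 to 1.37 at 3h, 1.04 to 1.66 at 24h and 1.01 to 1.52 at 7d.

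Col3a1 encodes type III collagen, which forms thin, compliant fibres together with type I. The gene lies on chromosome 1 (45311538 to 45349706, plus strand), tail to tail with Col5a2 across 24615 bases. Its level was 141, 94.4, 83.3 and 77.7 TPM at 0h, 50.5, 62.6, 59.2 and 58.7 TPM at 3h, 14.9, 39.5, 46.5 and 22.0 TPM at 24h, and 52.9, 27.5, 125 and 138 TPM at 7d. The 24h libraries were below all libraries at both 0h and 3h, whereas at 7d replicates 3 and 4 were at the level of 0h and replicate 2 was at the level of 24h. Col3a1 fell by 1.51 on the log2 scale at 24h (SE 0.44, adjusted p = 0.0331, edgeR), the largest estimate among the 26 genes. This call was lost without any of 5 libraries, 0h replicates 1, 2 and 3 and 24h replicates 1 and 4, with adjusted p up to 0.1001. Between 24h and 7d the estimate was 1.40 (SE 0.44, adjusted p = 0.0707). The ratio of Col3a1 to Col1a1 TPM was 1.75 ± 0.0964 at 0h, 2.0 ± 0.125 at 3h, 1.02 ± 0.237 at 24h and 1.58 ± 0.494 at 7d (SD, n = 4). All 4 libraries at 24h, at 1.24 or less, lay below all 0h and 3h libraries, at 1.63 or more.

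Type V collagen is the minor fibrillar collagen that starts fibril assembly and limits fibril width. Col5a1 (chromosome 2, 27886425 to 28039514, plus strand) was at 31.9, 23.5, 21.9 and 18.4 TPM at 0h, 12.1, 12.5, 13.6 and 14.2 TPM at 3h, 7.60, 13.2, 17.3 and 7.84 TPM at 24h, and 18.9, 14.1, 23.1 and 30.0 TPM at 7d. All libraries at 3h and 24h were below all at 0h, and the 7d libraries overlapped both 0h and 24h. It fell by 0.87 on the log2 scale at 24h (SE 0.22, adjusted p = 0.0122, edgeR), a call kept without any single library (highest adjusted p 0.0498). It rose by 0.81 from 24h to 7d (SE 0.22, adjusted p = 0.0294), a call lost without 24h replicate 1 or 4 or 7d replicate 3 or 4, with adjusted p up to 0.099.

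Col5a3 (chromosome 9, 20770050 to 20815067, minus strand) encodes another type V chain. It was at 36.9, 24.3, 22.4 and 19.6 TPM at 0h, 18.5, 19.3, 21.0 and 21.4 TPM at 3h, 13.8, 15.5, 14.7 and 10.1 TPM at 24h, and 15.6, 10.7, 20.6 and 28.0 TPM at 7d. Its 3h libraries overlapped the 0h range, and the 24h libraries were below both. Col5a3 fell by 0.72 at 24h on the log2 scale (SE 0.22, adjusted p = 0.0316, edgeR), lost without any of 5 libraries (adjusted p up to 0.110). Col5a2 (chromosome 1, 45374321 to 45503282, minus strand) encodes the partner chain of Col5a1. It was at 17.7, 16.1, 14.4 and 9.84 TPM at 0h, 8.03, 10.9, 9.34 and 9.52 TPM at 3h, 8.28, 10.1, 10.1 and 7.62 TPM at 24h, and 11.6, 9.40, 14.2 and 19.0 TPM at 7d. Replicate 4 was low at 0h, so that 3h and 24h both overlapped it. Col5a2 was called only in the test over all times (adjusted p = 0.0455, edgeR), its 24h estimate of -0.47 having an adjusted p of 0.0513. The remaining fibrillar genes, Col11a2 and Col27a1, had means under 2 TPM at each time and estimates between -0.25 and 0.45 against 0h at 3h and 24h.

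**Figure D4:**
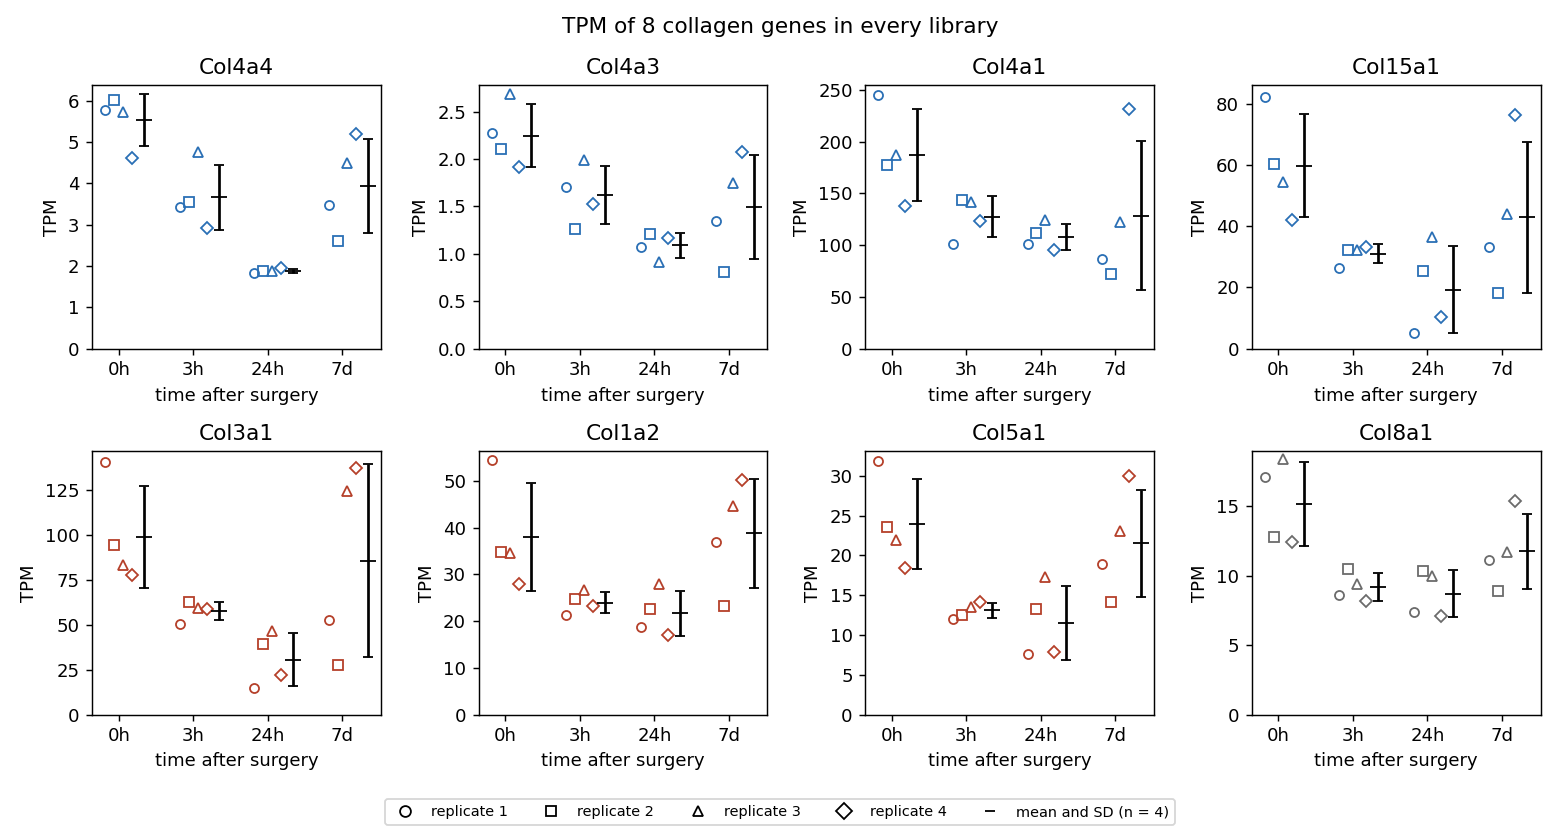
TPM (y axes, each from 0) of 8 collagen genes in every library by time after surgery, with the mean and SD of 4 libraries. Col4a4 at 24h lies between 1.83 and 1.96 TPM in all 4 libraries, below every library of the other times, while Col3a1 and Col15a1 are widely spread at 24h and 7d.

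Among basement membrane collagens, the ubiquitous type IV network of vessels and muscle is built from the products of Col4a1 and Col4a2. The pair lies head to head on chromosome 8, Col4a1 from 11198423 to 11312826 on the minus strand and Col4a2 from 11312805 to 11449287 on the plus strand, with overlapping first exons. Without a stated strand setting in the authors' counting, reads from such an overlap, as from the antisense transcript across Col15a1 and opposite-strand transcripts across Col4a3 and Col5a1, cannot be assigned with certainty. Col4a1 was the most abundant collagen mRNA, at 245, 177, 187 and 138 TPM at 0h, 102, 143, 142 and 123 TPM at 3h, 101, 112, 124 and 95.7 TPM at 24h, and 86.9, 72.4, 123 and 232 TPM at 7d. Every 24h library was below every 0h library, but the 0h libraries were themselves spread widely. The 24h estimate of -0.57 (SE 0.26) was not called (adjusted p = 0.141, edgeR).

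Col4a2 was at 184, 132, 160 and 117 TPM at 0h, 76.1, 118, 117 and 103 TPM at 3h, 66.6, 87.4, 110 and 65.9 TPM at 24h, and 81.8, 77.8, 106 and 185 TPM at 7d. Its 24h libraries were all lower than its 0h libraries, and 7d replicate 4 alone reached the top of the 0h range. Col4a2 fell by 0.64 on the log2 scale at 24h (SE 0.22) with an adjusted p of 0.0499 (edgeR), at the edge of the threshold, and the call was lost without any of 10 libraries (adjusted p up to 0.149). At 7d the ratio of Col4a1 to Col4a2 TPM was 1.10 ± 0.137, against 1.26 ± 0.0903 at 0h (SD, n = 4), and the ranges overlapped.

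Col4a3 and Col4a4 encode chains that join with the Col4a5 chain in a second type IV network, best known from the kidney filter, where its loss causes Alport syndrome. The genes lie head to head on chromosome 1, Col4a4 from 82448423 to 82586849 on the minus strand and Col4a3 from 82586921 to 82722059 on the plus strand. Col4a4 was at 5.78, 6.03, 5.72 and 4.61 TPM at 0h, 3.42, 3.55, 4.75 and 2.92 TPM at 3h, 1.83, 1.88, 1.88 and 1.96 TPM at 24h, and 3.48, 2.60, 4.48 and 5.19 TPM at 7d. The 24h libraries were nearly equal to each other and below every library of every other time. Col4a4 fell by 1.33 on the log2 scale at 24h against 0h (SE 0.18, adjusted p = 6.57e-05, edgeR) and by 0.92 at 24h against 3h (SE 0.19, adjusted p = 0.00408), and rose by 0.93 from 24h to 7d (SE 0.18, adjusted p = 0.00261). All 3 calls were kept when any single library was left out, the highest adjusted p being 0.000533, 0.0228 and 0.0149. An exact permutation test of 4 libraries against 4, two-sided, gave p = 0.0286 in each, the smallest p that its 70 splits allow. At 3h the estimate of -0.42 was not called (adjusted p = 0.151, edgeR).

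Col4a3 was lower in level than its neighbour, at 2.28, 2.11, 2.69 and 1.91 TPM at 0h, 1.71, 1.26, 1.99 and 1.52 TPM at 3h, 1.07, 1.21, 0.913 and 1.17 TPM at 24h, and 1.34, 0.808, 1.75 and 2.07 TPM at 7d. Its 24h libraries were below all 0h and 3h libraries, and its 7d libraries spanned from below the 24h range to within that of 0h. It fell by 0.81 on the log2 scale at 24h (SE 0.23, adjusted p = 0.0203, edgeR), which, of the 16 single libraries left out in turn, was lost only without 0h replicate 3 (adjusted p = 0.0603). Its difference between 24h and 7d, 0.33, was not called (adjusted p = 0.452). Across the 16 libraries log2(TPM + 1) of Col4a3 and Col4a4 had a Pearson r of 0.895 (permutation p = 1e-05, the smallest 100000 permutations can give) and a Spearman rho of 0.918 (permutation p = 1e-05). Without the 2 libraries farthest from the median of Col4a3, r was 0.934, and after subtraction of each time's mean it was 0.838 (permutation p = 0.0054, adjusted 0.0069). The ratio of Col4a3 to Col4a4 TPM was 0.407 ± 0.0498 at 0h and 0.578 ± 0.0662 at 24h (SD, n = 4), and no 24h library, at 0.485 or more, overlapped the 0h libraries, at 0.470 or less. Col4a5 (X chromosome), the partner chain, was at 17.9 ± 1.98, 12.8 ± 2.31, 13.6 ± 5.44 and 14.9 ± 2.28 TPM at the 4 times and was not called.

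The whole stretch between the annotated starts of Col4a4 and Col4a3 is shown because both genes fell at 24h and it is the only sequence upstream of both that no exon covers. It is 71 bases long and is written 5′ to 3′ on the minus strand, from the Col4a3 start toward the Col4a4 start (RefSeq, GRCm38.p6, chr1:82586850-82586920). Its label names the genes on either side and not the direction of reading.
Col4a4 to Col4a3: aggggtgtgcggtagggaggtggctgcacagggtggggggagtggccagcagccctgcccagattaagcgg
None of the motifs searched (CCAAT, the GC box GGGCGG and the TATA box TATAAA, each on both strands) was found in the 250 bases before the Col4a4 start. For comparison, 250 bases before the starts of the genes Col3a1, Col5a1 and Col8a1 are printed, the fibrillar gene with the largest 24h estimate, the fibrillar gene whose 24h call was kept without any single library, and the gene that fell at both 3h and 24h. Capitals mark the motifs found, and CCGCCC is the GC box read on the opposite strand. All 3 are from RefSeq, GRCm38.p6: Col3a1 at chr1:45311288-45311537, plus strand, Col5a1 at chr2:27886175-27886424, plus strand, and Col8a1 at chr16:57754738-57754987, minus strand.
Col3a1: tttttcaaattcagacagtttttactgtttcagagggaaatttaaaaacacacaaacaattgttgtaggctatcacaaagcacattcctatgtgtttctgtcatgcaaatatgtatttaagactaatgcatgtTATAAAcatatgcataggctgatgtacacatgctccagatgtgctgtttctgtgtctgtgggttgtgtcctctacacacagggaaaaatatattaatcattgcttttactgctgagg
Col5a1: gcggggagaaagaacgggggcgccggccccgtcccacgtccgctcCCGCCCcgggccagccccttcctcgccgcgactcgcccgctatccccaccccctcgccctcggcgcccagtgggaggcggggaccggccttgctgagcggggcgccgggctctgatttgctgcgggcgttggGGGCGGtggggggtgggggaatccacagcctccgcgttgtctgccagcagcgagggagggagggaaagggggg
Col8a1: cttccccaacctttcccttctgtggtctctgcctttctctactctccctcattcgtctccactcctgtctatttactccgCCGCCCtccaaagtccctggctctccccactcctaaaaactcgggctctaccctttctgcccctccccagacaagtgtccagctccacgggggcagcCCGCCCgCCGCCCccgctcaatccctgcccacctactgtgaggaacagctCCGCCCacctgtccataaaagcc
The Col3a1 stretch held 1 TATA box and 35.2% G or C, the Col5a1 stretch 2 GC boxes and 76.4% G or C, and the Col8a1 stretch 4 GC boxes and 60.8% G or C. GC boxes were found before both Col5a1 and Col8a1, and no motif was common to the 3 genes. Of the 35 collagen genes 27 matched the promoter table, with 29 windows; Col1a1, Col4a3, Col5a2, Col9a3, Col12a1, Col14a1, Col22a1 and Col26a1 had no entry. A GC box was found in 65.5% of the collagen windows and in 32.7% of all 32851 windows of this length, CCAAT in 31% and 33.8%, and a TATA box in 10.3% and 12.4%. These are matches of letters, not tested sites.

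Col15a1 and Col18a1 encode multiplexins, basement membrane zone collagens whose C-terminal fragments include endostatin in the case of Col18a1. Col15a1 (chromosome 4, 47208161 to 47313167, plus strand) was at 82.2, 60.1, 54.4 and 42.1 TPM at 0h, 26.3, 32.2, 32.2 and 33.1 TPM at 3h, 5.16, 25.2, 36.3 and 10.3 TPM at 24h, and 33.1, 18.2, 44.1 and 76.2 TPM at 7d. All libraries at 3h and 24h were below all at 0h, and the 24h libraries were spread widely, with replicates 1 and 4 far below replicates 2 and 3. The 24h estimate of -1.48 (SE 0.49) was not called, with an adjusted p of 0.0534 (edgeR). As a fraction of Col4a1 in the same library, Col15a1 was 0.317 ± 0.0237 at 0h, 0.245 ± 0.0227 at 3h, 0.169 ± 0.110 at 24h and 0.330 ± 0.0564 at 7d (SD, n = 4).

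Col18a1 (chromosome 10, 77052178 to 77166548, minus strand) was at 7.64, 5.66, 5.37 and 5.62 TPM at 0h, 3.20, 2.57, 4.40 and 4.80 TPM at 3h, 2.28, 2.97, 3.85 and 2.31 TPM at 24h, and 3.47, 2.75, 5.96 and 7.84 TPM at 7d. Each library at 3h and 24h was below each at 0h, and the 7d libraries reached from the 24h range up to that of 0h. It fell by 0.90 on the log2 scale at 24h (SE 0.26, adjusted p = 0.0253, edgeR), lost without 0h replicate 1 or 24h replicate 1 or 4 (adjusted p up to 0.0879).

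Type VI collagen, the first of the other collagens by level, forms beaded microfilaments that link cells to the fibrillar matrix. Its chains Col6a1 (chromosome 10, 76708792 to 76726168, minus strand) and Col6a2 (chromosome 10, 76595762 to 76623630, minus strand) lie 85162 bases apart in the same direction. Col6a2 was at 63.7, 41.3, 40.3 and 34.1 TPM at 0h, 23.6, 27.5, 29.7 and 28.2 TPM at 3h, 10.5, 25.2, 28.7 and 14.6 TPM at 24h, and 27.7, 20.1, 39.2 and 58.0 TPM at 7d. All libraries at 3h and 24h were below all at 0h. It fell by 0.997 on the log2 scale at 24h (SE 0.30, adjusted p = 0.0379, edgeR), a call lost without any of 5 libraries (adjusted p up to 0.112).

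Col6a1 was at 107, 80.4, 68.3 and 59.7 TPM at 0h, 40.9, 45.1, 46.8 and 51.4 TPM at 3h, 25.3, 48.4, 60.8 and 31.1 TPM at 24h, and 56.4, 38.0, 70.4 and 97.9 TPM at 7d. At 24h replicate 3 just exceeded the lowest 0h library. The 24h estimate of -0.74 (SE 0.26) was not called (adjusted p = 0.0575, edgeR). The third main chain, Col6a3, had a similar estimate of -1.02 with a larger error (SE 0.45, adjusted p = 0.139).

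Col8a1 (chromosome 16, 57624258 to 57754737, minus strand) encodes a short-chain collagen made by vascular and other mesenchymal cells. It was at 17.1, 12.8, 18.4 and 12.4 TPM at 0h, 8.61, 10.5, 9.37 and 8.18 TPM at 3h, 7.35, 10.3, 9.93 and 7.11 TPM at 24h, and 11.1, 8.90, 11.7 and 15.4 TPM at 7d. All libraries at 3h and 24h were below all at 0h, and 7d overlapped both. Col8a1 fell by 0.54 on the log2 scale at 3h (SE 0.14, adjusted p = 0.0277, edgeR) and by 0.60 at 24h (SE 0.14, adjusted p = 0.00591). The 24h call was kept without any single library (adjusted p up to 0.0289), and the 3h call was lost without any of 5 (adjusted p up to 0.103).

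Col23a1 (chromosome 11, 51289920 to 51583918, plus strand) encodes a transmembrane collagen. Its level was low, at 2.57, 2.65, 2.24 and 2.23 TPM at 0h, 1.91, 1.80, 2.13 and 2.05 TPM at 3h, 1.23, 1.60, 1.89 and 0.991 TPM at 24h, and 3.68, 2.61, 2.17 and 2.35 TPM at 7d. All 7d libraries were above all 24h and 3h libraries. It rose by 0.80 on the log2 scale from 24h to 7d (SE 0.21, adjusted p = 0.0179, edgeR), and the call was lost without 24h replicate 1 or 4 or 7d replicate 1 (adjusted p up to 0.0632). Of the 6 further tested genes of this class, Col14a1 and Col16a1, which associate with fibrils, had 24h estimates of -0.75 and -0.54 (adjusted p = 0.0672 and 0.0683, edgeR), and Col28a1 was the only one above 0 at 24h, at 0.40 (adjusted p = 0.471).

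Chains that assemble into the same trimer moved together from library to library, and so did chains of different trimers. Over 16 libraries the Pearson r of log2(TPM + 1) was 0.948 for Col1a1 with Col1a2 (permutation p = 1e-05; rho 0.932), 0.939 for Col4a1 with Col4a2 (rho 0.95) and 0.977 for Col6a1 with Col6a2 (rho 0.953). After each time's mean was subtracted, these 3 values were 0.939, 0.941 and 0.982, and without the 2 libraries farthest from the median of the first gene they were 0.92, 0.891 and 0.963. Col5a1 with Col5a2 had r = 0.915 (rho 0.888), and Col1a1 with Col3a1 had r = 0.879 (rho 0.853). Within times these values were 0.82 and 0.923, though only the first of these pairs shares a trimer. Across classes, Col1a1 with Col4a1 had r = 0.759 (rho 0.668, permutation p = 0.0058), 0.675 without the 2 farthest libraries and 0.808 within times. Of the 9 pairs examined, all had an adjusted permutation p of 0.0058 or less on this scale, but all levels in a library share its depth and makeup.

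Levels of cell markers were set beside these results, and their part in them was not tested except where a covariate is named. Col1a1 with the fibroblast marker Pdgfra had r = 0.71 (rho 0.744, permutation p = 0.0019), which was 0.562 without the 2 farthest libraries, 0.461 within times (permutation p = 0.19) and 0.411 on TMM-scaled log2 CPM (counts scaled to library size) (adjusted permutation p = 0.11). Col4a1 with the endothelial marker Pecam1 had r = 0.729 (rho 0.709), 0.715 without the 2 farthest libraries, 0.632 within times (permutation p = 0.02) and 0.428 on the TMM scale (adjusted permutation p = 0.11). The marker counts at 24h stand against 18.2% of all tested genes called. Of 15 tested fibroblast markers, 1 was higher and 2 were lower at 24h against 0h, and the summed level of the 16 markers ranged from 2288 to 3731 TPM at 0h and 2432 to 2709 TPM at 24h. The 12 endothelial markers summed to 1264 to 1723 TPM at 0h and 1201 to 1920 TPM at 24h, with 1 higher and 2 lower. No marker of these lists was at 0 in every library. Of 8 tested markers of activated fibroblasts, 3 were lower at 24h and none higher, with sums of 116 to 147 TPM at 0h and 53.1 to 99.8 TPM at 24h. Of 4 tested markers of mesothelium and epicardium, the outer lining of the heart, 2 were lower at 24h and none higher, and the median of their log2 fold changes was -0.90 at 3h, -2.10 at 24h and -1.30 at 7d. The 9 markers of that list summed to 12.5 to 22.4 TPM at 0h, 8.40 to 12.6 at 3h, 6.13 to 31.4 at 24h and 14.3 to 15.1 at 7d. Of the 15 tested fibroblast markers, 2 were lower and none higher at 3h against 0h, where 5.31% of all tested genes were called. The fibroblast covariate was the mean log2 CPM of Pdgfra, Tcf21, Ddr2 and Pi16, not the sum of the 16 markers. Mean TPM at the 4 times was 21.94, 16.65, 17.67 and 21.49 for Pdgfra and 21.63, 14.19, 19.36 and 21.09 for Tcf21. For Ddr2 it was 22.19, 13.33, 15.2 and 17.02, and for Pi16 56.72, 34.86, 39.43 and 53.13. With this covariate, 3 collagen genes were called at 24h, Col4a3, Col4a4 and Col8a1, and 1618 of all tested genes. The median log2 fold change of the 26 collagen genes was then -0.55 with 24 of 26 negative.

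The libraries with Myl7 above 50 TPM bear on the 24h result, since 3 of the 4 are 24h libraries. The highest fibrillar sums at 24h, 162 and 142 TPM, were in replicate 3, with 6.97 TPM of Myl7, and replicate 2, with 127 TPM. The lowest were in replicates 1 and 4, with 63.8 and 159 TPM of Myl7. Of 7 tested atrial markers, 5 were higher at 24h than at 0h and none lower. The 8 markers of that list summed to 503.9 to 1503 TPM at 0h and 308.5 to 800.5 TPM at 3h. At 24h the sum was 534.5 to 1073 TPM, within the 0h range, and at 7d it was 585.6 to 2817 TPM. With Myl7 as a covariate only Col4a4 of the 26 collagen genes was called at 24h (adjusted p = 0.00647, edgeR), and 89 of all tested genes in place of 3062, while the median log2 fold change of the 26 was -0.58. Without the 4 libraries, 24h was left with replicate 3 alone, which is then assumed to vary like the other groups. In that fit the median was -0.38, with 22 of 26 estimates negative, and Col4a4 was called alone (log2 fold change -1.46, adjusted p = 0.028, edgeR), with 119 of all tested genes.

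**Figure D5:**
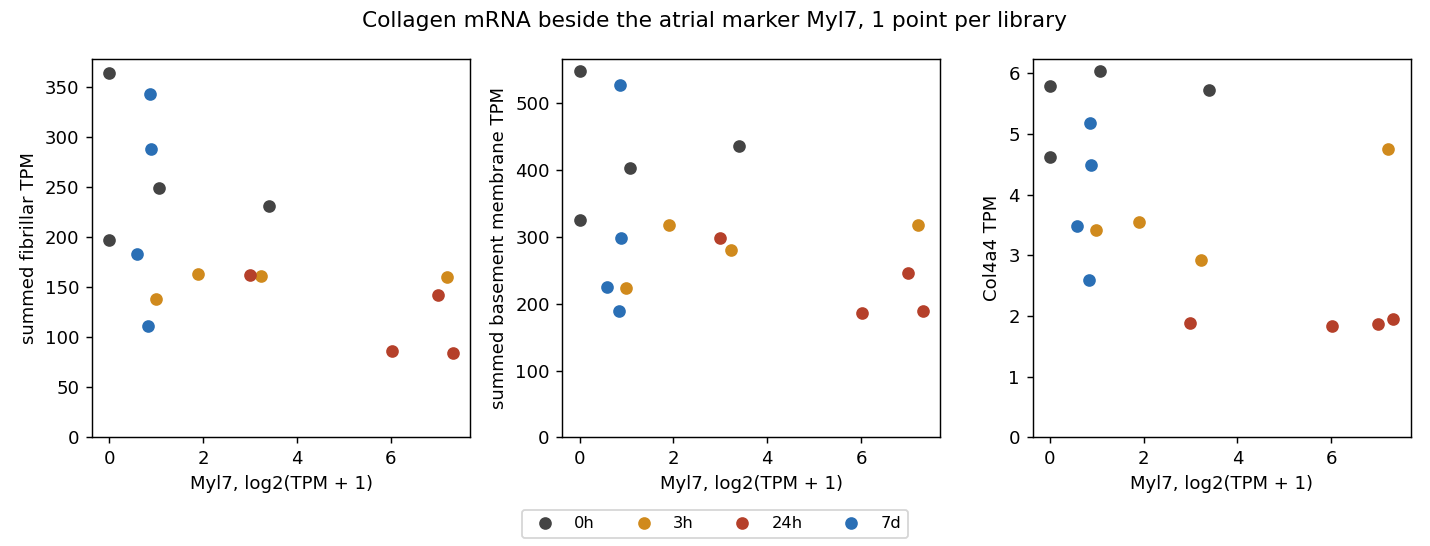
Summed fibrillar TPM, summed basement membrane TPM and Col4a4 TPM (y axes, each from 0) against the atrial marker Myl7 as log2(TPM + 1) (x axis), 1 point per library, coloured by time. The 24h libraries have Col4a4 levels of 1.83 to 1.96 TPM at Myl7 levels from 6.97 to 159 TPM, and 3h replicate 3 has 4.75 TPM of Col4a4 at 146 TPM of Myl7.

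Transcript length also differed between collagen genes and others, with a median of 7015.5 bases for the 26 tested genes against 3545 for all tested genes. With a trend on gene length removed, 4 collagen genes were called at 24h, namely Col4a4, Col5a1, Col8a1 and Col18a1, and none at 3h, with 2648 and 603 of all tested genes. The median log2 fold change of the 26 genes at 24h was -0.51 in that fit, with 24 of 26 negative, and at 3h it was -0.24 with 21 of 26 negative.

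Genes that make, process and degrade collagen were taken from lists by function, whose counts stand against 18.2% of all tested genes called at 24h and 5.31% at 3h. All results for these lists, here and below, are from the main fit. With Myl7 as a covariate, 89 of all tested genes were called at 24h in place of 3062. Which genes of these lists were among them is not given here. Of 18 tested genes for chain modification and folding, 3 rose and 3 fell at 24h against 0h. Fkbp10, an endoplasmic reticulum isomerase that helps procollagen to fold, rose from 24.2 ± 4.77 to 37.8 ± 2.06 TPM (SD, n = 4; log2 fold change 0.85, SE 0.14, adjusted p = 0.000345, edgeR), opposite to the collagen chains. Tmem38b, an ion channel of the endoplasmic reticulum, rose by 0.85 (SE 0.17, adjusted p = 0.00224), whereas P4ha2, a subunit of prolyl 4-hydroxylase, fell by 0.40 (SE 0.12, adjusted p = 0.0244). The list's median was -0.29.

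Of 13 tested genes for propeptide processing and cross-linking, 1 rose and 5 fell at 24h. Lox, which cross-links fibrils, was the one that rose, and Pcolce2, which enhances propeptide cleavage, fell by 0.38 (SE 0.13, adjusted p = 0.0428, edgeR) and rose by 0.53 from 24h to 7d (adjusted p = 0.00977). At 3h the matrix-associated transglutaminase Tgm2 rose from 175 ± 19.7 to 224 ± 17.0 TPM (SD, n = 4; log2 fold change 0.54, adjusted p = 0.0132, edgeR). Of 15 tested fibril assembly partners, 2 rose and 5 fell at 24h (median -0.44). Lum (lumican, a small proteoglycan on fibrils) fell from 125 ± 25.6 to 66.9 ± 13.7 TPM (SD, n = 4; log2 fold change -0.70, adjusted p = 0.00289, edgeR) and rose by 0.76 from 24h to 7d (adjusted p = 0.002).

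Of 14 tested genes for collagen breakdown and uptake, 2 rose and 6 fell at 24h. Those that rose were Mmp8, the neutrophil collagenase, and Timp1, an inhibitor of matrix metalloproteinases. The means of Timp1 were 7.51 ± 1.40 TPM in the 0h libraries and 32.8 ± 30.7 TPM in the 24h libraries (SD, n = 4), and those of Mmp8 were 0.0333 ± 0.0667 and 1.38 ± 2.0 TPM, so that both were spread widely at 24h. Mmp8 was also higher at 3h, at 2.15 ± 1.24 TPM (adjusted p = 0.0228, edgeR), where neutrophil markers were high. The part of the neutrophil markers in this was not tested.

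Of 9 tested collagen receptors, 1 rose and none fell at 24h, and at 3h 1 rose and 2 fell. Ddr2, the fibrillar collagen receptor tyrosine kinase of fibroblasts, fell by 0.56 on the log2 scale at 3h (SE 0.14, adjusted p = 0.0246, edgeR). Of 21 tested genes of TGF-beta signalling, which drives collagen transcription, 3 fell and none rose at each of 3h and 24h. The inhibitory Smad7, itself a target of the pathway, fell from 17.7 ± 2.53 to 8.06 ± 1.14 TPM at 3h (SD, n = 4; log2 fold change -0.95, adjusted p = 0.00753, edgeR), and Skil, a repressor of Smad proteins, fell by 0.67 at 3h (adjusted p = 0.00155) and by 0.59 at 24h (adjusted p = 0.000859). Of 14 tested partners of type IV collagen in basement membranes, 3 fell and none rose at 24h (Nid1, Lama4 and Pxdn), with a median of -0.37. Lama4, a laminin chain of vessels, fell by 0.73 at 3h (adjusted p = 0.0201, edgeR) and by 0.53 at 24h (adjusted p = 0.0392). Of the 10 genes for procollagen export, 1 rose and 1 fell at 24h.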

How the data were processed

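The authors deposited 1 table with counts, TPM and FPKM per gene for 16 left ventricle libraries. Per the submitters' processing notes, cutadapt, STAR and the mouse build mm10 were used. No source used here gives the versions, how reads were counted or whether counting used strand. Per the labels, polyA RNA was made into directional libraries. The deposited TPM and FPKM values match those computed from the deposited counts and gene lengths. The sample columns carry another prefix than the sample titles, so each was matched to a library by its time and number. The table's name points to an Ensembl 111 annotation, whereas gene positions here are those of GENCODE M21 (GRCm38), matched by gene ID. The counts were tested with edgeR 4.0.16 (quasi-likelihood, TMM scaling, robust, 1 fit over all 16 libraries) in R 4.3.3, for genes with a mean of 0.5 TPM or more, with Benjamini-Hochberg adjustment over all tested genes within a comparison. The script was tested on simulated data. Alternatives used limma 3.58.1 and DESeq2 1.42.0. The depth was 8313655 to 12893551 counts per library, and mitochondrial genes are not in the table. Permutation tests were exact over 70 splits or used 100000 resamples, two-sided. Genes given in every library were those past an adjusted p of 0.05 in any comparison and the 3 most abundant of each class. The main type I, III, IV, XV and XVIII chains were added. Functional list genes given with values were taken from up to 3 of smallest p over time in each list. They are given by time and not by library, and not all of them are given. The members and lists were chosen with earlier results of these data known. Promoter sequences are from RefSeq (GRCm38.p6).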

Additional observations from a re-analysis of the deposited data

Results flagged for a closer look

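At 3h, replicate 1 stood apart from the other 3 libraries of its time in Col15a1, at 26.3 TPM against 32.2 to 33.1 TPM, and in the summed fibrillar TPM, at 138 against 160 to 163 TPM. At 0h, replicate 1 stood apart in Col18a1, at 7.64 TPM against 5.37 to 5.66 TPM. In each case the gap to the nearest library exceeded Dixon's 95% critical share of the whole range of the 4 libraries. Chance passes this limit in about 1 in 20 groups, and 3 of the 76 groups examined did.

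The change since 0h differed between times in 4 genes by a test of the difference itself (edgeR, adjusted p under 0.05 in each). For Col4a4 the change at 24h minus that at 3h was -0.92 on the log2 scale, and the change at 7d minus that at 24h was 0.93. For Col1a2, Col5a1 and Col23a1 the change at 7d minus that at 24h was 0.73, 0.81 and 0.80. Since both changes share the 0h libraries, each of these equals the difference between the later times.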

How the results depend on the processing

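At 24h against 0h, where 10 collagen genes were called lower, the count was 16 with library totals alone, 17 and 16 with limma on log2(TPM + 1) and log2(TPM + 0.1), 4 with the length trend removed, 6 with a minimum of 0.1 TPM, 4 with no filter, 1 with Myl7 as a covariate, 3 with the fibroblast covariate and 1 without the libraries over 50 TPM of Myl7 (an alternative chosen after seeing the data). Over all genes tested in each fit, the calls lower at 24h, 1454, were 2275, 2904, 2836, 1066, 1349, 1255, 36, 766 and 28 in these 9 fits. At 3h against 0h, where 1 was called, DESeq2 called 2, the groups fitted alone 14, and the length trend, Myl7 and fibroblast fits 0. Over all genes tested in each fit, these called 1299, 3191, 603, 184 and 3, in place of 895. At 24h against 3h (1 called) the count was 2 with the groups alone, with 835 of all tested genes called in place of 1313. Without the Myl7 libraries, which leave 1 library at 24h, the median log2 difference of the 26 genes was 0.01, against -0.21. At 7d against 24h (4 called) the count was 2 with no filter, 2 with the fibroblast covariate, 1 with the groups alone and 0 with Myl7. Over all genes tested in each fit, these called 1286, 861, 371 and 24, in place of 1424. Without the Myl7 libraries the median log2 difference of the 26 genes was 0.23, against 0.44. At 7d against 3h (0 called) DESeq2 and the groups alone gave 1 each, with 1068 and 1107 of all tested genes in place of 821. For any change (6 called) DESeq2 and the fit without robust moderation gave 11, and Myl7 and the fibroblast covariate 1 each. Over all tested genes, these fits called 4385, 3543, 937 and 1809, in place of 3484. The cause of these shifts was not tested. Leaving out 1 library gave 4 to 16 collagen calls at 24h, 0 to 2 at 3h and 0 to 2 at 7d. There were 1 to 1 at 24h against 3h, 1 to 10 at 7d against 24h, 0 to 4 at 7d against 3h and 4 to 13 for any change. Over all tested genes, the calls in these 7 tests were 1621 to 4352, 298 to 1349, 35 to 313, 755 to 1684, 792 to 2457, 461 to 1067 and 2521 to 4801. The lowest collagen counts at 24h came without 0h replicate 1 or 24h replicate 1 or 4, and the highest without 7d replicate 2. The fibrillar sum at 3h over 0h, 0.598 in TPM, was 0.648 in FPKM and 0.686 in TMM-scaled CPM, and the other sum, 0.604, was 0.681 in the latter and 0.814 as the median over its genes. Leaving out 1 library, the fibrillar ratio ranged from 0.553 to 0.69 at 3h, 0.401 to 0.526 at 24h and 0.746 to 1.04 at 7d, the basement membrane ratio from 0.615 to 0.733, 0.483 to 0.592 and 0.555 to 0.819, and the other ratio from 0.559 to 0.687, 0.447 to 0.589 and 0.69 to 0.93. On the TMM scale r was 0.411 for Col1a1 with Pdgfra and 0.428 for Col4a1 with Pecam1. For the 16 genes given by library, no alternative reversed a call. TPM itself shifts between times: on log2(TPM + 1) the median of all tested genes was -0.15 at 3h and -0.19 at 24h against 0h.

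The labels do not say whether a replicate number pairs the libraries. Deviations of same-numbered libraries correlated between -0.122 and 0.0554 over 24 pairs, none over 0.1. Those of different-numbered libraries correlated between -0.171 and 0.199 over 72 pairs. These values cannot decide whether a number marks a shared animal, batch or day. With the replicate block the counts were 8 at 24h, 0 at 3h, 4 at 7d against 24h, 1 at 24h against 3h and 5 for any change. Over all tested genes, that fit called 2699, 636, 1196, 1115 and 2923, in place of 3062, 895, 1424, 1313 and 3484.

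Each of the 9 genes under 0.5 TPM had few counts per library. With the minimum lowered to 0.1 TPM none was called (edgeR, smallest adjusted p = 0.1006, Col9a2 at 7d against 24h). The part of depth in this was not tested.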

Other observations

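Some genes of the collagen pathway moved at times when few collagen chains were called. Adamts14, a protease that removes the N-terminal propeptide of procollagen, rose at 3h from 1.43 ± 0.211 to 2.85 ± 0.336 TPM (SD, n = 4; log2 fold change 1.18, adjusted p = 0.0209, edgeR) and was at 0.883 ± 0.437 TPM at 24h. Creb3l1, a transcription factor of the secretory pathway, fell at 3h from 12.7 ± 2.60 to 6.15 ± 0.421 TPM (SD, n = 4; log2 fold change -0.87, adjusted p = 0.0299, edgeR). Fmod (fibromodulin, a small proteoglycan on fibrils) was at 1.45 ± 0.673 TPM at 0h, 1.16 ± 0.595 TPM at 24h and 0.286 ± 0.150 TPM at 7d (SD, n = 4), and fell by 2.07 on the log2 scale from 24h to 7d (adjusted p = 0.0178, edgeR).

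Cd36, listed here as a collagen receptor and best known as a fatty acid transporter of cardiomyocytes and endothelium, rose at 24h from 1789 ± 174 to 2206 ± 24.8 TPM (SD, n = 4; log2 fold change 0.53, adjusted p = 0.00438, edgeR) and fell by 0.57 from 24h to 7d (adjusted p = 0.00403). Ltbp1, which holds latent TGF-beta in the matrix, fell from 18.0 ± 1.52 to 10.3 ± 2.49 TPM at 24h (SD, n = 4; log2 fold change -0.61, adjusted p = 0.0042, edgeR) and rose by 0.56 from 24h to 7d (adjusted p = 0.0121). The ratio of Col6a1 to Col6a2 TPM was 1.77 ± 0.125 at 0h, 1.69 ± 0.108 at 3h, 2.14 ± 0.204 at 24h and 1.85 ± 0.148 at 7d (SD, n = 4), and the 24h and 3h libraries did not overlap.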
